A study of Mus musculus with 228 samples.

Results

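The comparison set CA1 pyramidal cells against dentate granule cells (GC) when both had received the Ascl4 virus, and asked which of the differences between these cell types were still present. The members were all cells of the authors' quality-controlled count table whose titles end in Ascl4 CA1 (45 cells) or Ascl4 GC (51 cells): 96 cells, beside 93 EGFP cells in the same table. The granule cells came from Calb1-Cre mice and the CA1 cells, from the medial part of the ventral CA1, came from Nex-Cre mice, so effects of the cell type and of the Cre line cannot be told apart. All mice were 3 to 4 months old, and each cell was drawn into a patch pipette from an acute slice of ventral hippocampus 1 month after virus was injected. Every cell, controls included, carried a Cre-dependent adeno-associated virus (AAV) for the green fluorescent protein EGFP, and the cells compared here also carried an AAV for Ascl4. EGFP CA1 (46 cells) and EGFP GC (47 cells), which had no AAV for Ascl4 and no other AAV in its place, served as the reference for the same cell type contrast.

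Ascl4 is a basic helix-loop-helix (bHLH) transcription factor of the achaete-scute family, whose members act in cell fate decisions and bind short DNA motifs called E-boxes. Granule cells are the principal neurons of the dentate gyrus, depend on the homeobox factor Prox1 for their identity and send mossy fibres to CA3. CA1 pyramidal cells are the output neurons of the hippocampus proper, and are marked in the adult by the bHLH factor Neurod6 (also called Nex, the gene after which their Cre line is named) and by Wfs1 and Fibcd1.

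Read counts per gene were deposited for each cell, with 1077532 to 25442664 reads in the Ascl4 CA1 cells (median 3836150) and 1239702 to 20876388 in the Ascl4 GC cells (median 4700600). No label ties a cell to an animal, and cells of a group are not replicates of the treatment. Each group therefore stands as 1 sample, values are given without a test, and how far animals differ is not known. Reads were summed over the cells of a group and scaled to a total of 1000000 (CPM), and log2 ratios of CA1 to GC were taken with 1 CPM added to each side, which understates the fold of low genes. Bracketed ranges of CPM are exact Poisson intervals and those of cell shares exact Clopper-Pearson intervals, both at 95% and for counting error only, since amplified reads are not independent molecules. A gene counted as detected in a cell at 10 CPM. Each group was split at 1 title number into 2 parts, called runs here (17 and 28 Ascl4 CA1 cells, 33 and 18 Ascl4 GC cells). Title numbers of the Ascl4 CA1 cells form more than 2 blocks, with EGFP CA1 cells between them. The second run of Ascl4 CA1 cells pools all blocks after the first, and differences between the pooled blocks were not tested. The labels name no batch, and values are also given within each run.

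The Ascl4 virus was read in cells of both types. Ascl4 stood at 9395 CPM (9382 to 9408) in Ascl4 CA1 and 14111 CPM (14097 to 14124) in Ascl4 GC, a log2 ratio of -0.59, against 32.6 and 47.2 CPM in EGFP CA1 and EGFP GC. The lowest, median and highest cells held 23.2, 6716 and 31943 CPM in CA1 and 182.9, 11178 and 44534 CPM in GC. At 200 CPM, a line above all but 1 of the EGFP cells, there were 44 of 45 Ascl4 CA1 cells and 50 of 51 Ascl4 GC cells. Counts per gene do not part transcripts of the virus from those of the cell's own Ascl4 gene.

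The marker genes still parted the 2 cell types, Neurod6 in fewer cells than with EGFP alone and Prox1 in a similar share of granule cells. Prox1 (chromosome 1, 190118035 to 190170714 of GRCm38) stood at 7.78 CPM (7.41 to 8.16) in Ascl4 CA1 and 156.2 CPM (154.7 to 157.6) in Ascl4 GC, and its lowest, median and highest cells were 0, 0 and 482 CPM in CA1 and 0, 3.56 and 1819 CPM in GC. It was detected in 24 of 51 GC cells and 1 of 45 CA1 cells, against 25 of 47 and 0 of 46 with EGFP. Many GC cells of both groups thus lay near 0, where the CA1 cells lay. Neurod6 (chromosome 6, 55677822 to 55681263) stood at 94.2 CPM (92.9 to 95.5) in Ascl4 CA1 and 1.23 CPM (1.1 to 1.36) in Ascl4 GC, with lowest, median and highest cells of 0, 2.8 and 556 CPM and 0, 0 and 79.3 CPM. It was detected in 19 of 45 Ascl4 CA1 cells, 42.2% (27.7 to 57.8%), and in 40 of 46 EGFP CA1 cells, 86.96% (73.7 to 95.1%). The labels do not say whether Cre takes the place of 1 Neurod6 allele in Nex-Cre mice, and any part of this in its level in CA1 cells of both groups was not tested. Neither marker reached 10 CPM in 26 of 45 Ascl4 CA1 cells and 26 of 51 Ascl4 GC cells, against 6 of 46 EGFP CA1 and 22 of 47 EGFP GC cells.

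In 1 Ascl4 CA1 cell Prox1 was detected above Neurod6, and in 1 Ascl4 GC cell Neurod6 was detected above Prox1. By these 2 markers the cells went against their labels. No EGFP cell did. The Ascl4 CA1 cell held 481.5 CPM of Prox1 and 176.7 CPM of Neurod6. It detected 31.3% of the genes that mark EGFP CA1 cells and 11.6% of those that mark EGFP GC cells. By these gene sets it stayed on the side of its label. The Ascl4 GC cell held 79.3 CPM of Neurod6, 257.6 CPM of Mpped1 and none of Prox1, and it detected 56.4% of the genes that mark EGFP CA1 cells against 23.3% of those that mark EGFP GC cells. Without these 2 cells the log2 ratio of Prox1 was -7.19 in place of -4.16, that of Neurod6 6.39 in place of 5.42, that of Mpped1 8.48 in place of 6.66 and that of Meis2 4.37 in place of 3.77. The 2 cells were picked by their Prox1 and Neurod6 values, so the wider ratios of Prox1 and Neurod6 follow from that choice and nothing is read from them.

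**Figure D1:**
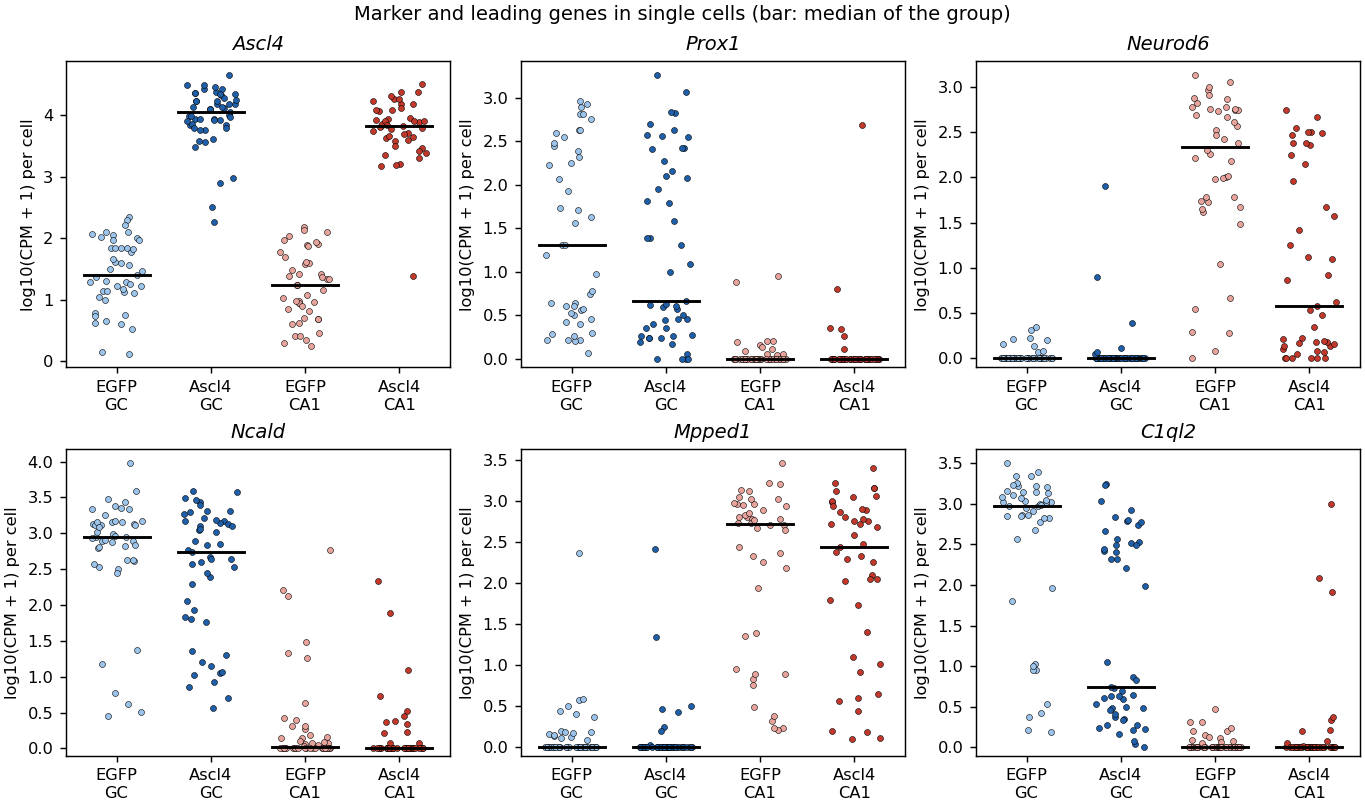
Level of 6 genes in each cell (log10 of CPM plus 1, vertical axis) in the 4 groups, with 1 point a cell and a bar at the group's median. Ascl4 was high in both Ascl4 groups, Ncald and Mpped1 stayed far apart between GC and CA1, and Prox1, Neurod6 and C1ql2 had lower medians in the Ascl4 cells than in the EGFP cells of their own type.

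The promoters of 4 of these genes are shown because their proteins or transcripts tell the cell types apart and because bHLH factors bind the E-box CANNTG. Each run is the 250 bases before the RefSeq start (GRCm38.p6), read 5′ to 3′ on the gene's strand, with E-boxes in capitals. Neurod6 lies at chr6:55681264-55681513 on the minus strand, Prox1 at chr1:190170828-190171077 on the minus strand, C1ql2 at chr1:120340332-120340581 on the plus strand and Cxcl12 at chr6:117168285-117168534 on the plus strand.
Neurod6: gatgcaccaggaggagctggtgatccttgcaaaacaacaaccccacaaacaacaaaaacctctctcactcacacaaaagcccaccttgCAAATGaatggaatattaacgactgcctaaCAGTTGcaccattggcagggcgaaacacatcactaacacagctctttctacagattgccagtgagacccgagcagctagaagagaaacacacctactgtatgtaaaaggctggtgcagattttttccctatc
Prox1: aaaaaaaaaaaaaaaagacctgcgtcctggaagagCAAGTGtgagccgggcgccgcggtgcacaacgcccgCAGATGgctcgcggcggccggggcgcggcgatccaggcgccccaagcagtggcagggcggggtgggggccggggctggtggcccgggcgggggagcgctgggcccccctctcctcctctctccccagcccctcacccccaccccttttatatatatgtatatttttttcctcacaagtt
C1ql2: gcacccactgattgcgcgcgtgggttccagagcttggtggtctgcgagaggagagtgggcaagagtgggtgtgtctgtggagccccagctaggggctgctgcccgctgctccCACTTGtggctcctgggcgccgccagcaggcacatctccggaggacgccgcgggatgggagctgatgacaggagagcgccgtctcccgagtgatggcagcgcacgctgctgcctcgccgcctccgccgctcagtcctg
Cxcl12: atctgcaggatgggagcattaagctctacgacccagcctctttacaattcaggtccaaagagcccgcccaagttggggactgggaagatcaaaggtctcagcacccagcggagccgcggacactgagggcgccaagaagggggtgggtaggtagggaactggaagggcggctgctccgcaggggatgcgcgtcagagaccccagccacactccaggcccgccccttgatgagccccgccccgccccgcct
The first pair of these promoters held 2 E-boxes each, that of C1ql2 held 1 and that of Cxcl12 held none. CANNTG, searched on both strands, is its own reverse complement as a pattern and was found in 55.6% of the 7730 tested genes with a promoter in the RefSeq table. The narrower form CAGCTG, which is part of CANNTG and which achaete-scute factors are known to bind, was in 11.02% of them and in none of these 4 promoters. A match is a run of letters and not a measured binding site.

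Over all genes, similar numbers of genes were apart between the types with Ascl4 and with EGFP. Of 9906 genes with reads in 25% of cells and 10 CPM in at least 1 Ascl4 group, 2150 (21.7%) were at least 2-fold higher in CA1 and 1586 (16%) at least 2-fold higher in GC. In EGFP cells these counts were 1975 (20%) and 1677 (17%) of 9885. At 4-fold they were 788 (7.95%) and 565 (5.7%) with Ascl4 and 758 (7.67%) and 601 (6.08%) with EGFP. The median log2 ratio of all tested genes was 0.11 with Ascl4 and 0.02 with EGFP, and differences below stand against these medians. The split between the sides followed the scaling: 1670 genes were higher in CA1 and 2739 in GC by the authors' normalized values, whose median was -0.31, and 2356 and 1130 when the highest cell of each group was left out for each gene.

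Stricter genes, called cell type genes here, had to be at least 4-fold apart in the summed reads and also without the highest cell of each group, with shares of detecting cells at least 25 percentage points apart. With Ascl4, 1.74% of tested genes were such genes high in CA1 and 0.404% (40 genes) high in GC. With EGFP the shares were 1.65% for CA1 and 0.87% (86 genes) for GC. At the edge of the rule, Smyd5 (log2 ratio 2.03) and Klf2 (-2.07) were inside and Cwc25 (1.998) and Cbx6 (-1.996) were outside. In cells thinned to 500000 reads, Ascl4 CA1 cells held a median of 4920 genes and Ascl4 GC cells 4041, against 4420.5 and 4292 in EGFP CA1 and EGFP GC. Whether this gap bears on the unequal counts of the 2 sides was not tested. Within runs the shares were 4.61% for CA1 and 0.498% for GC in the first and 1.84% and 1.81% in the second, so the excess on the CA1 side was present in the first run and not in the second.

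The genes furthest above in Ascl4 CA1 cells were mostly well-known CA1 genes. Fibcd1 (chromosome 2, 31813290 to 31846005), a transmembrane receptor for acetylated groups, stood at 165.4 CPM (163.7 to 167.1) in CA1 and 0.0444 CPM (0.0236 to 0.0759) in GC, a log2 ratio of 7.32. Its lowest, median and highest cells were 0, 1.65 and 958 CPM in CA1 and 0, 0 and 2.23 CPM in GC. It was detected in 16 of 45 CA1 cells and 0 of 51 GC cells, a count that allows a share of up to 6.98%. In EGFP CA1 cells Fibcd1 was at 543 CPM and detected in 39 of 46 cells, so its ratio was alike (7.01) while fewer CA1 cells held it with Ascl4.

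Mpped1 (chromosome 15, 83779467 to 83858494), which encodes a metallophosphoesterase domain protein, was found in most CA1 cells. Its lowest, median and highest cells were 0.279, 277 and 2506 CPM in Ascl4 CA1 and 0, 0 and 258 CPM in Ascl4 GC, and 35 of 45 CA1 cells and 2 of 51 GC cells detected it, beside 35 of 46 and 1 of 47 with EGFP. Its log2 ratio was 6.66 with Ascl4 and 6.76 with EGFP. The secreted dickkopf protein Dkk3 (6.50, EGFP 5.03), the matricellular protein Nov (6.01, EGFP 4.96) and the Golgi mannosidase Man1a (6.19, EGFP 7.10) were likewise detected in 30 to 33 of 45 CA1 cells and 2 or 3 of 51 GC cells. The receptor kinase Kit (6.57, EGFP 6.69), the cofactor of LIM-domain factors Ldb2 (6.86, EGFP 6.78), the receptor phosphatase Ptpru (5.93, EGFP 6.9998) and the copine Cpne8 (5.82, EGFP 7.58) were also CA1 genes with both viruses. The slow myosin heavy chain Myh7 was further apart with Ascl4 (6.28, EGFP 3.39), with 151.4 CPM in Ascl4 CA1 and 32.3 CPM in EGFP CA1. Htr5b, a serotonin receptor gene, stood at 5.94 and 5.77. Without the highest cell of each group, the log2 ratios of these 11 genes lay between 5.35 and 8.16.

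Granule cells with Ascl4 were led by Ncald (chromosome 15, 37366175 to 37792570), a neuronal calcium sensor, at 1080.2 CPM (1076 to 1084) in GC and 3.997 CPM (3.73 to 4.27) in CA1, a log2 ratio of -7.76. Its lowest, median and highest cells were 2.64, 541 and 3929.8 CPM in GC and 0, 0 and 216.4 CPM in CA1. It was detected in 46 of 51 GC cells and 3 of 45 CA1 cells, close to the 43 of 47 and 6 of 46 cells with EGFP. Stxbp6, a SNARE-binding protein also called amisyn, had a log2 ratio of -7.66 (EGFP -8.21) and was detected in 24 of 51 Ascl4 GC cells and 32 of 47 EGFP GC cells. Synpr, or synaptoporin, a vesicle protein of mossy fibre terminals, was at 384 CPM in Ascl4 GC, 5.35 in Ascl4 CA1, 1040.2 in EGFP GC and 3.97 in EGFP CA1, so that the ratio went from -7.71 with EGFP to -5.92 with Ascl4.

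The neurotrophin Ntf3 (-7.13, EGFP -6.20), the semaphorin Sema5a (-5.50, EGFP -6.93), the polo-like kinase Plk5 (-5.23, EGFP -5.07) and Fam163b (-4.49, EGFP -6.51) were also GC genes with both viruses. The Notch ligand Jag1 (-5.16, EGFP -6.37) was on the same side with EGFP, where 11 of 47 GC cells and 0 of 46 CA1 cells detected it, too few for the rule on shares. The forkhead factor Foxo1 (-6.35, EGFP -3.41), the monoamine transporter Slc29a4 (-6.46, EGFP -2.96) and the small GTPase Rnd2 (-4.68, EGFP -2.22) were further apart with Ascl4. For Foxo1 and Slc29a4 the CA1 level was the lower one, at 1.98 and 0.233 CPM with Ascl4 against 26.8 and 12.6 with EGFP. For Rnd2 the GC level was the higher one, at 66.8 CPM with Ascl4 against 16.2 with EGFP. The zinc finger factor Tshz1 stood at -5.36 and -4.26. Without the highest cell of each group, the log2 ratios of these 12 genes lay between -8.15 and -4.19.

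To ask what remained, the cell type genes of EGFP cells were read in the Ascl4 cells, which share no cell with them. Of the CA1-high genes, 81 (49.7%) were still at least 4-fold higher in CA1, 38 were 2-fold to 4-fold higher, 41 were less than 2-fold apart and 3 were at least 2-fold higher in GC. Of the 86 GC-high genes, 50 (58.1%) were still at least 4-fold higher in GC, 18 were 2-fold to 4-fold higher, 17 were less than 2-fold apart and 1 was at least 2-fold higher in CA1. Of these 86 genes, 82 passed the filter on low values in the Ascl4 cells. The direction was the other one in 15 CA1-high and 7 GC-high genes, and the median log2 ratio went from 3.10 to 1.93 and from -4.15 to -2.38. Because these genes were chosen for a large ratio in EGFP cells, the reverse reading is given beside them. Of the CA1-high genes chosen in Ascl4 cells, 81 (47.1%) were at least 4-fold higher in EGFP CA1, and of the 40 GC-high genes, 33 (82.5%) were at least 4-fold higher in EGFP GC.

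The sets chosen in the 2 virus groups shared 58 CA1-high genes, 33.7% of the Ascl4 set and 35.6% of the EGFP set. They shared 29 GC-high genes, 72.5% of the Ascl4 set and 33.7% of the EGFP set. With sets chosen and read within 1 run, and so in fewer cells, the share of EGFP genes still 4-fold apart was 23.9% and 38.8% for CA1 and 35.9% and 39.5% for GC.

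**Figure D2:**
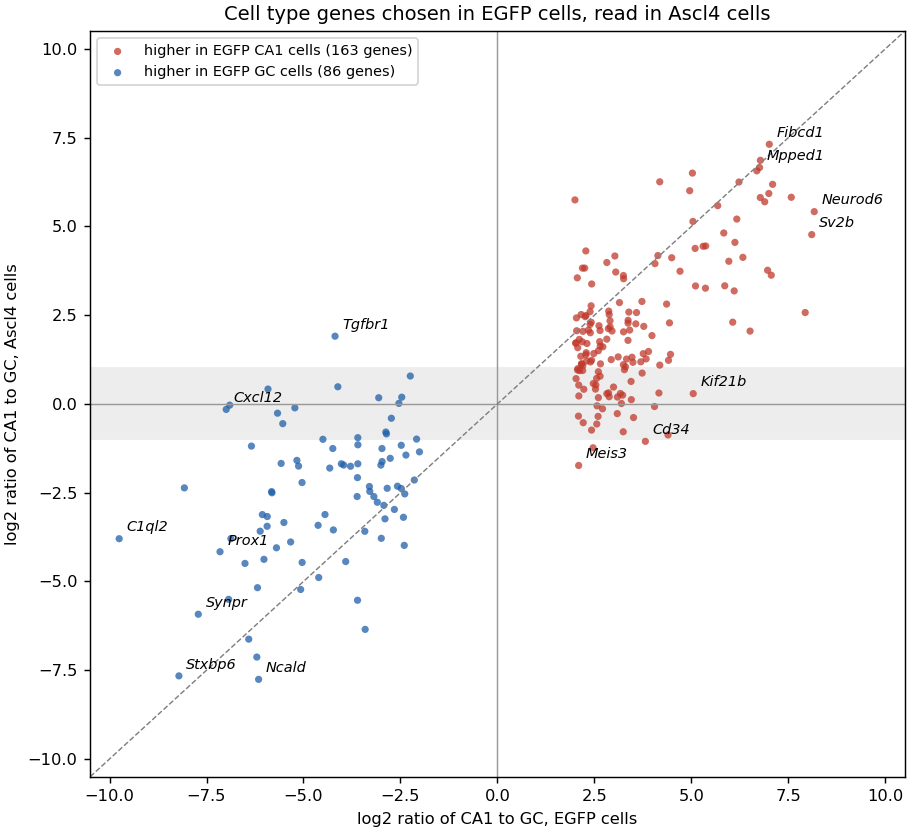
Log2 ratio of CA1 to GC in EGFP cells (horizontal axis) and in Ascl4 cells (vertical axis) for the CA1-high (red) and the 86 GC-high (blue) genes chosen in EGFP cells, 1 point a gene. The dashed line marks equal ratios and the grey band marks genes less than 2-fold apart with Ascl4. Most points keep their side, while Cxcl12 lies in the band and Tgfbr1, Cd34 and Meis3 lie on the other side.

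**Figure D3:**
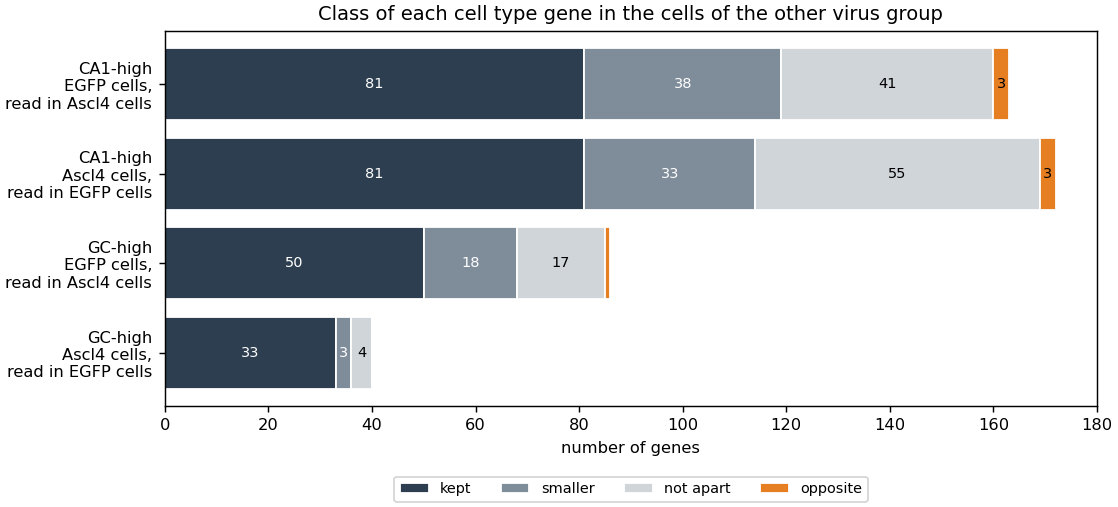
Number of cell type genes (horizontal axis) that were at least 4-fold apart the same way (kept), 2-fold to 4-fold apart the same way (smaller), less than 2-fold apart (not apart) or at least 2-fold apart the other way (opposite) in the cells of the other virus group. The first bar holds 81, 38, 41 and 3 genes, and the third 50, 18, 17 and 1.

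Of the 41 CA1-high genes that were no longer 2-fold apart, 25 were at least 2-fold higher in Ascl4 GC than in EGFP GC with no such drop in CA1. In 6 the CA1 level alone was at least 2-fold lower with Ascl4, in 9 both held and in 1 neither. Of the 10613 genes tested with either virus, 17.2% were at least 2-fold higher and 19.7% at least 2-fold lower in Ascl4 GC than in EGFP GC, and 14.5% and 14.1% in CA1. The members were picked for a low GC level with EGFP, so these counts, and those of the other sets below, are a description and nothing is read from them. The surface sialomucin Cd34 shows the first pattern. It stood at 145.4 CPM (143.8 to 147.003) in Ascl4 CA1 and 303 CPM (301 to 305) in Ascl4 GC, against 178.6 and 11.8 CPM with EGFP. Detecting cells were 17 of 45 CA1 and 22 of 51 GC cells with Ascl4 and 22 of 46 and 2 of 47 with EGFP, so that the CA1 cells were alike and the GC cells were not. The kinesin Kif21b (log2 ratio 5.05 with EGFP, 0.29 with Ascl4) went from 0.26 to 39.7 CPM in GC and from 40.8 to 48.8 in CA1. The immediate early gene Ier2 (3.25 and -0.78), the protease Tasp1 (4.05 and -0.07) and Gpr180 (3.51 and -0.38) had GC levels of 18.8, 4.57 and 6.55 CPM with EGFP and 220.8, 55.5 and 65.9 CPM with Ascl4. Kctd2 (4.40 and -0.87) was lower in CA1 as well, at 87.6 CPM with EGFP and 14.7 with Ascl4.

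Of the 17 GC-high genes that were no longer 2-fold apart, the GC level alone was at least 2-fold lower with Ascl4 in 8, the CA1 level alone was at least 2-fold higher in 2, and both held in 7. The furthest changes were in Smoc2 (chromosome 17, 14279506 to 14404790), a secreted calcium-binding matrix protein, and Cxcl12 (chromosome 6, 117168535 to 117181367), a chemokine. Smoc2 stood at 121.9 CPM (120.4 to 123.4) in EGFP GC and 0.109 CPM (0.0747 to 0.154) in Ascl4 GC, and the highest Ascl4 GC cell held 3.09 CPM. Cxcl12 stood at 128.3 CPM (126.8 to 129.8) in EGFP GC and 0.174 CPM (0.13 to 0.229) in Ascl4 GC, with 5.35 CPM in the highest cell. Each was detected in 16 of 47 EGFP GC cells and 0 of 51 Ascl4 GC cells, and in no CA1 cell of either group. With Ascl4 these transcripts therefore no longer parted the types, at log2 ratios of -0.03 and -0.15 against -6.90 and -6.99 with EGFP.

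The receptor for thyrotropin-releasing hormone, Trhr (-5.91 with EGFP, 0.42 with Ascl4), was at 61.02 CPM in EGFP GC and 1.8 in Ascl4 GC, and at 0.028 in EGFP CA1 and 2.75 in Ascl4 CA1. With Ascl4 it was detected in 1 GC cell (375 CPM) and 1 CA1 cell (240.1 CPM), against 13 of 47 EGFP GC cells. Carmil1, a regulator of actin capping (-5.22 and -0.11), was lower in GC (39 and 9.07 CPM) and higher in CA1 (0.0721 and 8.34 CPM). The copine Cpne4 (-5.67 and -0.26) was equal only through 1 Ascl4 CA1 cell with 4185 CPM. Detected in 15 of 51 Ascl4 GC cells and 2 of 45 Ascl4 CA1 cells, it had a log2 ratio of -4.36 without the highest cells. The TGF-beta receptor Tgfbr1 was -4.19 with EGFP and 1.91 with Ascl4, with 9 of 45 CA1 and 5 of 51 GC cells detecting it with Ascl4.

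C1ql2, a secreted C1q family protein of mossy fibre synapses, kept its side at a much lower level. It stood at 1017 CPM (1012 to 1021) in EGFP GC and 294 CPM (293 to 296) in Ascl4 GC, and its log2 ratio was -9.75 with EGFP and -3.80 with Ascl4. The lowest, median and highest cells were 0.537, 949 and 3149 CPM in EGFP GC and 0, 4.58 and 1735 CPM in Ascl4 GC, where 23 of 51 cells detected it against 38 of 47. In Ascl4 CA1 it was detected in 3 of 45 cells, with 995 CPM in the highest, and without the highest cells its ratio was -5.20. That highest CA1 cell detected 6.75% of the CA1-high and 20.9% of the GC-high genes of EGFP cells. It was the 1 Ascl4 CA1 cell whose GC share exceeded its CA1 share. Some Ascl4 GC cells thus held as much as EGFP GC cells and the others lay near 0, as the plot of single cells shows.

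Other genes parted the types with Ascl4 and not with EGFP. Of the CA1-high genes of Ascl4 cells, 55 (31.98%) were less than 2-fold apart in EGFP cells and 3 were at least 2-fold higher in EGFP GC. In 38 of the 55 the GC level alone was at least 2-fold lower with Ascl4, in 5 the CA1 level alone was at least 2-fold higher, in 9 both held and in 3 neither. The autophagy tether Epg5 (4.16 with Ascl4, -0.89 with EGFP) was at 1.18 CPM in Ascl4 GC and 54.1 in EGFP GC, with 37.9 and 28.7 CPM in CA1. Arnt2, a bHLH-PAS factor (4.12 and -0.04), was lower in GC (7.67 against 60.5 CPM) and higher in CA1 (149.4 against 58.6 CPM), where 27 of 45 cells detected it with Ascl4 and 18 of 46 with EGFP. Wdr26, a ubiquitin ligase subunit, stood at 2.83 and -1.57. Dpagt1, which starts N-glycan synthesis (4.01 and -0.05), the cilium protein gene Cfap74 (4.62 and 0.64) and the microtubule linker Hook2 (4.30 and 0.49) had GC levels of 5.14, 1.12 and 5.09 CPM with Ascl4 and 37.5, 35.8 and 29.5 CPM with EGFP.

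On the GC side 4 genes of 40 were less than 2-fold apart in EGFP cells. The potassium channel subunit Kcnc1 (-4.11 with Ascl4, -0.75 with EGFP) was at 80.9 CPM in Ascl4 GC and 19.8 in EGFP GC, and was detected in 19 of 51 and 11 of 47 cells. The adenylyl cyclase Adcy1 (-2.23 and -0.74) was detected in 15 of 45 Ascl4 CA1 cells and 31 of 46 EGFP CA1 cells. The phosphatase Nudt4 (-3.38 and -0.42) and the interferon-induced nucleotide kinase Cmpk2 (-2.36 and -0.56) complete the group.

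Read cell by cell, the EGFP gene sets still placed nearly every Ascl4 cell with its own type. The median Ascl4 CA1 cell detected 41.1% of the CA1-high genes and 13.95% of the 86 GC-high genes, and the median Ascl4 GC cell 11.7% and 37.2%. The medians were 49.7% and 9.30% in EGFP CA1 and 7.98% and 48.8% in EGFP GC. Sets chosen in EGFP cells had to be frequent in 1 EGFP group and rare in the other, so the lower own shares in Ascl4 cells are given as a description. With the sets chosen in Ascl4 cells instead, the median shares of CA1-high and GC-high genes were 50% and 12.5% in Ascl4 CA1, 8.14% and 50% in Ascl4 GC, 43.6% and 10% in EGFP CA1 and 13.95% and 50% in EGFP GC. By these sets the median own share of granule cells was the same with both viruses and that of CA1 cells was higher with Ascl4. These sets had to be frequent in 1 Ascl4 group and rare in the other, so this too is a description only. By the EGFP sets the CA1 share exceeded the GC share in 44 of 45 Ascl4 CA1 cells and 4 of 51 Ascl4 GC cells. In EGFP cells it did in 46 of 46 CA1 and 0 of 47 GC cells, counts nearly fixed because the sets were chosen there. By the sets chosen in Ascl4 cells it did in 43 of 45 Ascl4 CA1 and 1 of 51 Ascl4 GC cells. The counts by those sets were 45 of 46 EGFP CA1 and 0 of 47 EGFP GC cells. More than 12000 genes were read in 1 Ascl4 CA1 cell and 4 Ascl4 GC cells and in no EGFP cell. These were only in part the cells that the EGFP sets placed with the other type. The Ascl4 GC cells with the higher CA1 share had reads in 5386, 8910, 13214 and 14645 genes. The Ascl4 CA1 cell with the higher GC share had reads in 5149 genes.

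**Figure D4:**
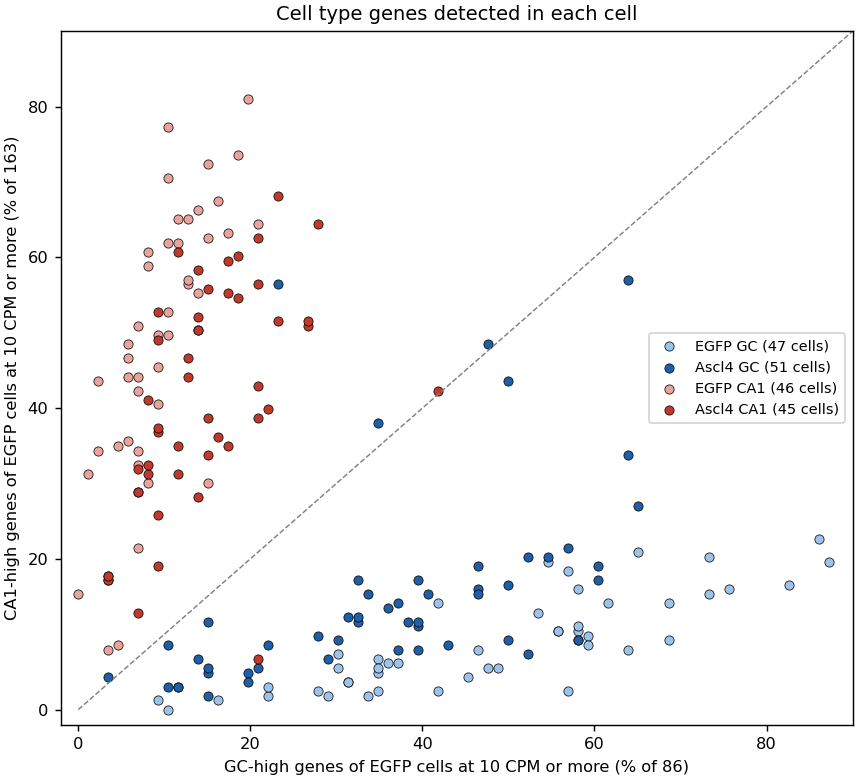
Share of the CA1-high genes (vertical axis, percent at 10 CPM or more) against the share of the 86 GC-high genes (horizontal axis, percent) in each cell of the 4 groups, with sets chosen in EGFP cells. Ascl4 CA1 cells lie above the dashed line of equal shares except 1, and Ascl4 GC cells below it except 4.

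Among 31 gene lists, the identity lists were the furthest apart. The counts of every list stand against the shares over all tested genes. With Ascl4 21.7% were at least 2-fold higher in CA1 and 16% in GC, and with EGFP 20% and 17%. Of 28 tested CA1 pyramidal genes, 22 were at least 2-fold higher in CA1 and 0 in GC, with a median log2 ratio of 4.31 (5.74 with EGFP). Sv2b, a synaptic vesicle glycoprotein (4.77, EGFP 8.11), and the homeobox factor Meis2 (3.77, EGFP 6.97) were detected in 7 of 51 and 2 of 51 Ascl4 GC cells and in none of the EGFP GC cells. The POU factor Pou3f1 was detected in 26 of 45 Ascl4 CA1 cells and 0 of 51 Ascl4 GC cells (5.75, EGFP 2.0004). The ETS factor Etv1 stood at 1.79 (EGFP 3.37). Wfs1, which encodes the endoplasmic reticulum protein wolframin, was at 246 and 17.9 CPM in Ascl4 CA1 and GC and 78.1 and 40.8 with EGFP, a log2 ratio of 3.70 and 0.92.

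Of 24 tested granule cell genes, 20 were at least 2-fold higher in GC and 0 in CA1, with a median log2 ratio of -3.98 (-4.36 with EGFP). Both medians kept their sign in each run and under each alternative, at 2.78 to 5.39 and -4.68 to -2.24. The cation channel Trpc6 (-6.62) rested on few cells, with detection in 5 of 51 Ascl4 GC cells against 13 of 47 with EGFP. Zfpm2, a GATA cofactor, stood at -5.30 (EGFP -6.86). Calb1, the calcium buffer whose promoter drives Cre in the granule cell line, was at 1104 CPM in Ascl4 CA1 and 1201 in Ascl4 GC, and Bcl11b, a zinc finger factor, at 92.1 and 86.1 CPM, so neither was 2-fold apart. Of 14 tested genes of CA2, CA3 and mossy cells, 3 were higher in CA1, led by the proteolipid Nnat (5.61, EGFP 1.54), and 6 in GC, among them Ntf3 and the zinc finger gene Plagl1 (-5.61).

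**Figure D5:**
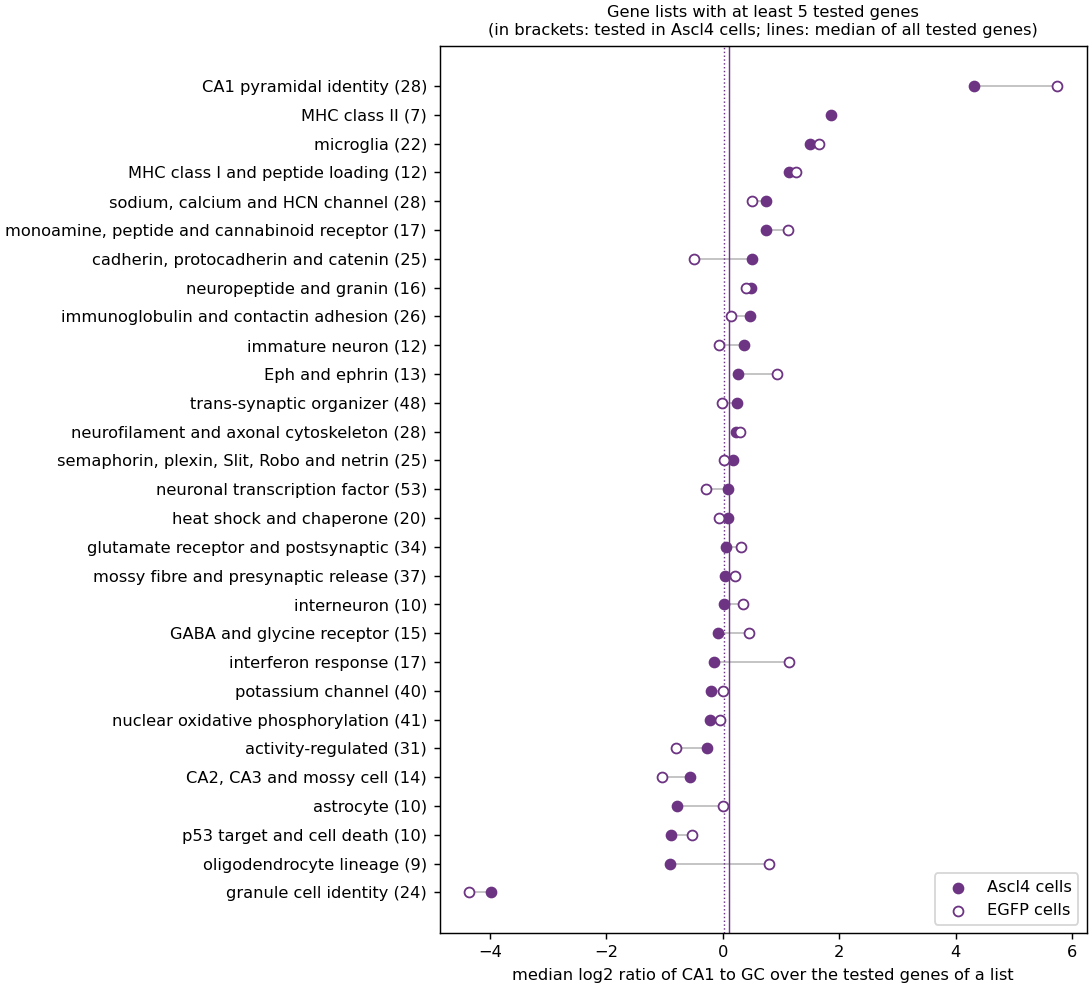
Median log2 ratio of CA1 to GC (horizontal axis) over the tested genes of each list with at least 5 of them, in Ascl4 cells (filled) and EGFP cells (open, where at least 5 were tested). The CA1 pyramidal list lies at 4.31 and the granule cell list at -3.98 with Ascl4, and most lists of synaptic and signalling genes lie near the median of all tested genes (vertical lines).

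The median ratios of the lists of transmitter release and reception lay near that of all tested genes (0.11), while single members were apart. Of all tested genes 21.7% were at least 2-fold higher in CA1 and 16% in GC. Of 37 tested presynaptic genes, 9 were higher in CA1 and 10 in GC (median 0.03, EGFP 0.20). Beside Sv2b and Synpr, the priming factor Unc13b was higher in CA1 (4.14, EGFP -0.30) and the active zone protein Rims3 in GC (-4.16, EGFP 1.66), where 5 of 51 cells detected it. Slc17a7, the vesicular glutamate transporter VGLUT1, was at 294 CPM in Ascl4 CA1 and 79.9 in Ascl4 GC, a log2 ratio of 1.87, and at 533 and 318 with EGFP (0.75). It was detected in 39 of 45 Ascl4 CA1 and 26 of 51 Ascl4 GC cells, against 44 of 46 and 38 of 47 with EGFP. Gad1, the GABA-synthesizing enzyme that granule cells also express, was at 339 CPM in Ascl4 GC and 30.8 in Ascl4 CA1 (-3.42, EGFP -4.62), and -5.48 without the highest cells.

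Of 34 glutamate receptor and postsynaptic genes, 6 were higher in CA1 and 8 in GC (median 0.06, EGFP 0.31). The scaffold Homer2 (1.59) and the receptor Grm5 (1.41) were on the CA1 side, and the kainate receptor subunit Grik3 (-4.06) was on the GC side. Without the highest cells Grm5 was at 0.97, under 2-fold, and Homer2 at 2.72. Of 15 GABA and glycine receptor genes, 2 were higher in CA1, the subunits Gabra3 (5.37) and Gabrg3 (3.52), and 1 in GC, Gabra4 (-1.23). Without the highest cells these were 3.52, 2.39 and -0.92.

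Potassium channel genes were apart on both sides, as were all tested genes (21.7% at least 2-fold higher in CA1 and 16% in GC). Sodium, calcium and HCN channel genes that were apart lay mostly on the CA1 side. Of 28 tested genes of this second list, 10 were higher in CA1 and 1 in GC, against 9 and 3 of 27 with EGFP. The median was 0.74 (EGFP 0.50), and 0.11 to 0.83 over the alternatives. The cation channels Trpc4 (2.89, EGFP 0.75) and Trpc5 (2.67, EGFP 3.96) were on the CA1 side, and Trpc4 was detected in 24 of 45 CA1 and 4 of 51 GC cells. Of 40 potassium channel genes, 8 were higher in CA1 and 15 in GC, against 6 and 10 of 40 with EGFP. Their median was -0.21 (EGFP 0.01) and ranged over the alternatives from -0.82 to 0.19, so its sign was not fixed. The SK channel Kcnn2 was detected in 32 of 45 Ascl4 CA1 and 8 of 51 Ascl4 GC cells (2.86, EGFP 3.15), and Kcnc2 stood at 4.45 (EGFP 5.37) and Kcnn3 at 3.28 (EGFP 0.94). Kcnc1, Kcng2 (-3.79, EGFP -2.49) and the inward rectifier Kcnj2 (-3.79, EGFP -6.87) were on the GC side.

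Adhesion and guidance genes, which help neurons choose partners, held members apart in both directions. So did all tested genes, with 21.7% at least 2-fold higher in CA1 and 16% in GC. Of 25 cadherins, protocadherins and catenins, 8 were higher in CA1 and 6 in GC with Ascl4, against 5 and 8 of 22 with EGFP, and the median was 0.49 against -0.49. It ranged from -0.08 to 0.68 over the alternatives. Fat3 (4.27, EGFP 1.05) and Cdh6 (3.72, EGFP 0.80) were the furthest on the CA1 side, and Cdh13 (-5.18, EGFP -6.18) and Pcdh17 (-3.19, EGFP -2.42) on the GC side. Cdh13 was detected in 5 of 51 Ascl4 GC cells and 20 of 47 EGFP GC cells. Of 48 trans-synaptic organizers, 13 were higher in CA1, such as Igsf21 (4.82, EGFP 5.84) and the teneurins Tenm4 (3.76, EGFP 1.42) and Tenm3 (3.45, EGFP 2.70). In GC 10 were higher, such as Lrrtm3 (-4.04, EGFP -2.74) and Cbln1 (-3.55, EGFP -2.70). Tenm4 was detected in 28 of 45 Ascl4 CA1 and 5 of 51 Ascl4 GC cells.

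Of 26 immunoglobulin and contactin adhesion genes, 6 were higher in CA1 and 4 in GC. L1cam stood at 2.35 (EGFP 2.53) and Opcml at 2.05 (EGFP 2.21). Cntnap2 was 2.05 with Ascl4 and 6.52 with EGFP, and was detected in 9 of 51 Ascl4 GC cells and 2 of 47 EGFP GC cells. Cntnap1 was on the GC side (-2.62). Of 13 Eph receptors and ephrins, 4 were higher in CA1, led by the receptors Ephb3 (4.09), Ephb6 (3.18) and Epha5 (2.84), and 5 in GC, led by the ligands Efna1 (-3.83), Efna2 (-3.17) and Efna5 (-1.98). The 3 ligands were detected in 5 of 51, 3 and 8 GC cells, and without the highest cells were at -3.53, -1.499 and -3.03. Of 25 semaphorin, plexin, Slit, Robo and netrin genes, 8 were higher in CA1, led by Sema3e (5.59, EGFP 5.68) and Sema4a (2.94, EGFP 4.10), and 6 in GC, led by Sema5a, Sema5b (-5.07, EGFP -3.55) and Sema4d (-3.27, EGFP -0.23). Sema3e was detected in 13 of 45 CA1 cells and 0 of 51 GC cells.

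Receptor genes of slower signals were more often higher in CA1 than all tested genes (21.7% in CA1 and 16% in GC), and neuropeptide genes were close to these shares. Of 17 receptors for monoamines, peptides and cannabinoids, 8 were higher in CA1 and 1 in GC (median 0.73, EGFP 1.12, 0.17 to 2.28 over the alternatives). The cannabinoid receptor Cnr1 was detected in 27 of 45 Ascl4 CA1 and 7 of 51 Ascl4 GC cells (2.52, EGFP 2.88). Htr1a stood at 4.26 with detection in 4 of 45 CA1 cells, and Sstr2 was on the GC side (-3.40). Of 16 neuropeptide and granin genes, 4 were higher in CA1 and 2 in GC (median 0.48, -0.16 by the authors' normalized values), against 4 and 4 of 17 with EGFP. The granin Chga (2.04, EGFP 0.52) and carboxypeptidase E, Cpe (1.67, EGFP 2.01), were on the CA1 side and the amidating enzyme Pam (-1.77) on the GC side. Cck, the cholecystokinin gene, was at 1142 and 696 CPM (0.71). Pcsk1, a prohormone convertase that activity induces, was at 89.7 CPM (88.5 to 91) in Ascl4 CA1 and 0.894 CPM (0.789 to 1.01) in Ascl4 GC, a log2 ratio of 5.58, and at 12.7 and 69.96 CPM with EGFP (-2.38). It was detected in 11 of 45 and 1 of 51 Ascl4 cells and 5 of 46 and 6 of 47 EGFP cells.

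Activity-regulated genes, which EGFP GC cells held at higher levels than EGFP CA1 cells, were closer together with Ascl4. Over all tested genes 17% were higher in GC and 20% in CA1 with EGFP, and 16% and 21.7% with Ascl4. Of 34 activity-regulated genes tested with EGFP, 16 were higher in GC and 2 in CA1 (median -0.80). With Ascl4 6 of 31 were higher in GC and 4 in CA1 (median -0.27), and the median was -0.73 in the first run and 0.40 in the second. The phosphatase Dusp4 (-3.29), the stress factor Atf3 (-1.67) and Gadd45g (-1.54) were on the GC side, as with EGFP (-2.45, -2.54 and -1.05). The neurotrophin Bdnf was at 193.4 and 314 CPM with Ascl4 (-0.69) and 103.4 and 509 with EGFP (-2.29). The nuclear receptor Nr4a2 was higher in CA1 with Ascl4 (1.84, 37 of 45 CA1 and 15 of 51 GC cells) and higher in GC with EGFP (-1.36, 25 of 46 and 32 of 47 cells).

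Of 53 neuronal transcription factor genes, 14 were higher in CA1 and 12 in GC (median 0.10, EGFP -0.30), led by Ldb2, Pou3f1 and Neurod6 on one side and by Foxo1, Zfpm2 and Prox1 on the other. Over all tested genes the shares higher in CA1 and in GC were 21.7% and 16%. Among 12 genes of immature neurons, 3 were on the CA1 side and 3 on the GC side. The growth cone protein Gap43 was detected in 38 of 45 Ascl4 CA1 and 6 of 51 Ascl4 GC cells (3.74, EGFP 4.71). Stmn2 was 1.19 with Ascl4 and 3.70 with EGFP. The bHLH factor Neurod1 stood at -1.72 (EGFP -3.004) and the tubulin-binding Stmn1 at -1.55 (EGFP -0.31), both on the GC side. Of 28 neurofilament and axonal cytoskeleton genes 22 were less than 2-fold apart, with Nefh (3.45) on the CA1 side and Map1b (-1.45) on the GC side.

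Markers of other cell types were read in these cells and moved with the groups. Over all tested genes 21.7% were at least 2-fold higher in Ascl4 CA1 and 16% in Ascl4 GC. All 22 tested microglia genes but 3 were at least 2-fold higher in Ascl4 CA1 (median 1.499, EGFP 1.64), among them the integrin Itgam (2.60), Fcrls (2.24) and Cd53 (1.91). The defining genes Cx3cr1 (40.7 and 11.9 CPM), P2ry12 (95.6 and 35.3 CPM) and Tmem119 (16.9 and 24.2 CPM) were read in Ascl4 CA1 and GC. These 3 were chosen after their values were seen. The summed level of the 22 genes in the lowest, median and highest cell was 1.15, 1271 and 65879 CPM in CA1 and 0.508, 165.3 and 18368 CPM in GC. Of 17 T cell and NK cell genes 2 were tested, Lck (3.89) and the chemokine Ccl5 (1.90, and 0.71 without the highest cells), and 15 of the 17 had reads in the Ascl4 cells. The summed level of the list was 258 CPM in Ascl4 CA1 and 52.2 in Ascl4 GC, against 17.2 and 4.99 with EGFP, and ran over 0, 1.17 and 3808 CPM in the lowest, median and highest Ascl4 CA1 cell and 0, 0.269 and 941 CPM in Ascl4 GC. Most of it was Ccl5, at 192.3 and 50.97 CPM in Ascl4 CA1 and GC. The T cell receptor gene Trac (11.6 and 0.0512 CPM) was detected in 1 of 45 CA1 cells and the leukocyte phosphatase Ptprc (37.8 and 0.331 CPM) in 4 of 45, and neither in a GC cell. The receptor subunit Cd3e was at 0.028 CPM in Ascl4 CA1 and at 0 in Ascl4 GC, and Nkg7 and Cd2 were at 0 in both. These 5 genes were chosen after their values were seen.

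Immune genes lay beside these markers. Their counts stand against 21.7% of all tested genes higher in Ascl4 CA1 and 16% in Ascl4 GC. Of 7 tested MHC class II genes, 6 were higher in Ascl4 CA1 and 0 in Ascl4 GC (median 1.85), among them H2-DMa (2.63), H2-Ab1 (2.63) and H2-Aa (2.01). H2-Ab1 and H2-Aa were detected in only 4 of 45 and 5 of 45 CA1 cells and 6 of 51 and 6 of 51 GC cells. Of 12 genes of MHC class I and peptide loading, 7 were higher in CA1 and 0 in GC (median 1.14), but the median was -0.81 in the first run and 1.88 in the second. Reads of near-identical H2 genes could be split between them, so single H2 values are uncertain. B2m, the light chain of class I, was at 492 and 189.6 CPM (1.37), and 0.67 without the highest cells. Of 17 tested interferon response genes, 3 were higher in CA1, such as Ifi27 (1.48) and Oasl2 (1.33), and 5 in GC, such as Usp18 (-3.18), Cmpk2 and Ifit1 (-1.83). The median was -0.15, with -0.94 and 1.10 in the runs. How far the microglia genes bear on the MHC values was not tested.

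Oligodendrocyte genes stood higher in Ascl4 GC through few cells. Of 9 tested, 4 were higher in GC and 1 in CA1 (median -0.90), with Mbp at 5754 CPM in GC and 544 in CA1 although 27 of 51 and 29 of 45 cells detected it. The summed level of the list in the lowest, median and highest cell was 0.218, 53.3 and 119892 CPM in GC and 0.625, 204.4 and 38252 CPM in CA1. Without the 5 Ascl4 cells that had reads in more than 12000 genes, the median was 2.48. Of 10 astrocyte genes 1 was higher in CA1, Apoe (1.04), and 4 in GC, among them Slc4a4 (-2.62) and S100b (-2.25). The summed level of that list ran over 4.82, 867 and 10943 CPM in CA1 and 1.52, 768 and 8956 CPM in GC, again as lowest, median and highest. No endothelial or mural gene passed the filter. Of 10 tested interneuron genes, 3 were higher in CA1 (Kcnc2, Lamp5 at 3.75, and Cnr1) and 4 in GC (with Gad1, Kcnc1 and Adarb2 at -5.52 among them).

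Most genes of energy supply and protein folding were less than 2-fold apart. Of 41 nuclear genes of oxidative phosphorylation, 39 were less than 2-fold apart (median -0.22, EGFP -0.04), and the 2 others, Sdhb (-1.23) and Atp5a1 (-1.12), were higher in GC, at -0.94 and -0.96 without the highest cells. Of 20 heat shock and chaperone genes 17 were less than 2-fold apart, with Hspa1a (1.62) and Hspa4 (1.27) on the CA1 side and the chaperonin subunit Cct5 (-1.03) on the GC side. Of 10 tested p53 target and cell death genes, 4 were higher in GC, among them Sesn1 (-1.78) and the cell cycle inhibitor Cdkn1a (-1.51), and 1 in CA1, Chac1 (1.53). Their median was -0.89 (EGFP -0.52), between -2.28 and -0.06 in the runs.

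E-boxes were counted in the promoters of the EGFP gene sets by what their members did with Ascl4. CANNTG was in 28 of 48 promoters (58.3%) of CA1-high EGFP genes still 4-fold apart with Ascl4 and in 14 of 34 (41.2%) of those not apart or opposite. On the GC side it was in 25 of 38 (65.8%) and 4 of 8, and in all tested genes in 55.6%. CAGCTG was in 6 of 48, 3 of 34, 5 of 38 and 0 of 8, against 11.02% of all tested genes.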

How the data were processed

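The deposited counts are reads per gene and cell, which the authors made with STAR and HTSeq on GRCm38.p4, per the submitters' processing notes. Versions, settings and strand use are not stated there, so reads of overlapping and antisense genes may not be parted. The authors' normalized signal is the deposited count divided by 1 factor per cell (coefficient of variation of the ratio within a cell at most 3e-16). How that factor was set, and by which rules cells passed quality control, is not given in the sources used here. For Ascl4 CA1 and Ascl4 GC the series text gives 51 and 52 such cells and the table holds 45 and 51. The 92 spike-in rows (4 reads) were left out, which leaves 22870 genes.

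Counts were summed per group, scaled to CPM and compared with a pseudocount of 1 CPM. The cell type rule misses genes that most cells of both types hold, since it asks for unequal shares of cells. The comparisons were Ascl4 CA1 against Ascl4 GC and, as reference, EGFP CA1 against EGFP GC. Each group counted as 1 sample, and no paired analysis was possible because title numbers are not shared between groups. The alternatives were 17 other ways of weighting, scaling, filtering or choosing cells, with edgeR 4.0.16 (TMM) and DESeq2 1.42.0 (median of ratios) used for size factors only.

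The members, lists (31, of 876 distinct genes, 873 found by symbol) and rules were chosen with earlier results of these data known. Genes of ribosomal proteins and of the mitochondrial genome, pseudogenes and predicted genes were not named. Named genes were the 12 highest and 12 lowest ratios among Ascl4 cell type genes, and, on each side, the 6 EGFP cell type genes no longer 2-fold apart with the largest fall and the 6 Ascl4 cell type genes not 2-fold apart with EGFP with the largest gain. Up to 3 genes furthest apart on each side of each list were added, with 20 fixed genes (among them Ascl4, Prox1, Neurod6, Calb1, C1ql2, Wfs1, Slc17a7, Gad1 and Bdnf). Genes named at the edge of the rule, and flagged below, fall outside it. Some genes that the rule names are not reported here. Gene positions are from GENCODE M21 (GRCm38) and promoters from RefSeq (GRCm38.p6), with the first listed promoter used where a gene has more. The code was tested on simulated data and run with R 4.3.3, scipy 1.17.1, pandas 2.3.3, numpy 2.4.6, matplotlib 3.10.9 and Python 3.11.15.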

Additional observations from a re-analysis of the deposited data

Results flagged for a closer look

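In 16 of the named genes the ratio of CA1 to GC was at least 2-fold to one side with Ascl4 and to the other with EGFP. With Ascl4 the directions were the same without the highest cells, though Ccl5 (0.71) and Cd34 (-0.99) were then under 2-fold. Some of these genes were named because their ratio changed between the virus groups. The number of such genes among all tested genes is not given here. With 1 sample a group the difference was not tested. In 9 of the 16 the values of both runs lay on the same sides.

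Higher in CA1 with Ascl4 and in GC with EGFP were Ccl5 (1.90 with Ascl4, -1.52 with EGFP), the glutathione-degrading enzyme Chac1 (1.53 with Ascl4, -1.18 with EGFP), the splicing factor Cwc25 (2.00 with Ascl4, -1.26 with EGFP), Nr4a2 (1.84 with Ascl4, -1.36 with EGFP), Pcsk1 (5.58 with Ascl4, -2.38 with EGFP), the methyltransferase gene Smyd5 (2.03 with Ascl4, -1.01 with EGFP), Tgfbr1 (1.91 with Ascl4, -4.19 with EGFP) and Wdr26 (2.83 with Ascl4, -1.57 with EGFP). Higher in GC with Ascl4 and in CA1 with EGFP were Bcas1 (-3.63, EGFP 3.18), Ccdc32 (-1.23, EGFP 2.47), Cd34 (-1.05, EGFP 3.82), Efna1 (-3.83, EGFP 1.98), Meis3 (-1.73, EGFP 2.10), Mobp (-3.88, EGFP 1.80), Rims3 (-4.16, EGFP 1.66) and S100b (-2.25, EGFP 1.54). Within the first run Tgfbr1 was -1.22 with Ascl4, on the same side as with EGFP (-3.64), and in the second it was 4.07. Pcsk1 was 6.96 and 4.06 with Ascl4 and -6.95 and 1.26 with EGFP in the first and second run. Cd34 was -1.04 and -1.04 with Ascl4 and 6.76 and 3.49 with EGFP, the same sides in each run. Bcas1, Mobp and S100b are genes of oligodendrocytes or astrocytes. The part of such cells in these values was not tested.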

How the results depend on the processing

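Main counts and shares moved by over 1.5 times, or beyond counting error, in 27 cases. Without a filter on low values 3990 genes were at least 2-fold higher in Ascl4 CA1 and 2540 in Ascl4 GC, and with a stricter filter 975 and 752. By the authors' normalized values 2739 were higher in GC, and in thinned cells 1057. Cell type genes high in CA1 made up 2.808% of tested genes with the highest cell left out, 0.9186% with a pseudocount of 10 CPM, 0.8136% without a filter and 2.71% with the stricter one (more and fewer genes tested), 1.161% in all cells without quality control, 4.606% in the first run, 0.5451% with shares 40 points apart and 0.7066% at 8-fold. Those high in GC made up 0.1881% without a filter, 0.6504% with the stricter one, 1.808% in the second run, 0.1413% with shares 40 points apart and 0.2625% at 8-fold. The share of EGFP CA1-high genes still 4-fold apart was 23.92% in the first run, 38.75% in the second and 38.75% without the deepest 10% of cells. That of GC-high genes was 35.86% and 39.45% in the runs. The share of Ascl4 cell type genes also 4-fold apart with EGFP was 39.04% in the second run for CA1, and 63.83% and 33.15% in the first and second run for GC. Without the 2 cells against their labels cell type genes made up 2.01% and 0.402% and the shares still apart were 50.31% and 58.14%.

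Of the named genes at least 2-fold apart, 14 had another sign under at least 1 of 17 alternatives. In the first run they were Tgfbr1 (-1.22), Ccl5 (-0.17), S100b (0.30), Mbp (0.97), Oasl2 (-0.12), B2m (-0.07) and Rims3 (0.04). In the second run they were Usp18 (0.49), Ifit1 (0.97), Homer2 (-0.16), Efna2 (2.27) and Stmn2 (-0.09). Without cells of more than 12000 genes Mobp was 0.14, Mbp 1.27 and Bcas1 0.82. The cause was not tested. No paired analysis was possible because the groups share no title number. The spread between animals is unknown, and a gene read in few cells is limited by their number more than by depth.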
